A study of Mus musculus with 42 samples.

Results

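The comparison set the lungs of Nfe2l2 knockout pups (genotype Nrf-/- in the labels) after 1 day of hyperoxia against those of knockout pups of the same age kept in room air. Its 6 arrays, 3 titled Knockout day 1 O2 and 3 titled Knockout day 1 Air, were taken by their titles from the 42 arrays of the series. Both groups were neonates at postnatal day 2 (P2), held with foster dams, and the exposed group spent 23 h a day in a chamber with at least 95% oxygen for 1 day. Each array held total RNA from the homogenised lung of 1 mouse, hybridised to Affymetrix 3′ expression arrays. The labels name no strain, no sex and no detail of the deleted allele. For reference, wild-type pups (Nrf+/+) of the same age with 1 day of hyperoxia or of air were drawn on where stated. So were knockout pups after 2 days (P3) and 3 days (P4) of hyperoxia or air. Knockout pups at P1, titled birthday and called P1 air here, and wild-type pups in air at P3 were also used. Each of these groups had 3 arrays. Values are log2, 1 probe set a gene, for 18194 genes. Genes count as called where limma, fitted to all 42 arrays, gave a Benjamini-Hochberg adjusted p below 0.05. Differences are hyperoxia minus air in log2 units, given ± 1 standard error (SE), n = 3 arrays a group. The SE and adjusted p rest on a spread pooled over all 42 arrays. They can understate the spread of a gene whose 3 air arrays differ widely.

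NRF2, the protein of Nfe2l2, is a transcription factor that is held in the cytoplasm by KEAP1 and broken down until oxidants or electrophiles release it. It then binds antioxidant response elements in front of genes for glutathione synthesis, quinone reduction, thioredoxin recycling and drug conjugation. In the newborn lung, which is still forming alveoli, high oxygen is known to damage endothelium and epithelium and to slow cell division. DNA damage under oxygen is also known to engage p53, which switches on genes of cell cycle arrest, repair and cell death.

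The targeted gene bore out the genotype labels. Nfe2l2 read 4.62, 4.70 and 4.45 in the air arrays of the knockout and 5.04, 4.85 and 4.63 in its hyperoxia arrays, against 10.81, 10.87 and 11.16 and 10.79, 10.86 and 10.90 in the wild type. A second probe set for Nfe2l2 was not lower in the knockout in air, with means of 6.21 in knockout and 5.76 in wild-type air, and where it lies relative to the deletion is not given in the sources used here. Nfe2l2 did not pass the test for hyperoxia (0.25 ± 0.18, adjusted p = 0.456). Sftpc, the surfactant protein C gene that marks alveolar type 2 cells, was between 14.60 and 14.71 in all 6 arrays, so the labelled tissue carried its defining transcript.

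The 3 air arrays carried transcripts of thymus, and in unequal amounts. Thymocytes are immature T cells that rearrange their receptor genes with the RAG recombinase, and the thymus lies next to the lungs in the chest. Rag1, a subunit of that recombinase, read 12.64, 8.97 and 12.05 in air replicates 1, 2 and 3 and 4.44, 4.79 and 4.86 in the hyperoxia arrays. Air replicates 1 and 3 were thus the high ones, air replicate 2 lay between, and the groups did not overlap. The mean deviation of 21 thymocyte genes from their means over 42 arrays, their list score, was 3.58, 0.70 and 2.71 in the air arrays and -0.48, -0.49 and -0.47 in hyperoxia. The air replicates 1 and 3 held the highest scores of the series, whose highest value outside this group was 0.97. The summed linear level of the 21 genes ran from 4545 to 39300 in knockout air, from 2121 to 2201 in knockout hyperoxia and from 2427 to 2732 in wild-type air. None of the 21 was near 0 in hyperoxia on the log2 scale, where single values ran from 4.60 to 9.21, but RMA values have no zero.

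Transcripts of thymic epithelium, the stroma that selects T cells, followed the same order. Prss16, a serine protease of the thymic cortex, read 11.29, 7.34 and 10.59 in air and 5.47, 5.27 and 5.54 in hyperoxia, a difference of -4.32 ± 0.52 (adjusted p = 9.5e-06). Tbata, a thymic stroma gene, read 10.46, 6.32 and 9.71 in air and 4.89, 5.003 and 4.87 in hyperoxia. Ccl25, the chemokine that draws precursors into the thymus, read 10.73, 6.93 and 10.13 in air and 5.36, 5.46 and 5.62 in hyperoxia. In all of them air replicate 2 was the lowest air array and every air array lay above every hyperoxia array. Psmb11, the proteasome subunit particular to cortical thymic epithelium, differed by -1.40 ± 0.25. The epithelial score was 2.78, 0.47 and 2.16 in the air arrays and between -0.34 and -0.18 in hyperoxia. Lower numbers of thymic cells and less RNA per cell cannot be told apart in tissue RNA, here or in any later result. Air replicate 3 also stood high for other tissues, with list scores of 3.14 for liver, 1.35 for heart muscle, 2.14 for skeletal muscle and 1.5 for fat. The hyperoxia arrays reached at most -1.04, -0.30, -0.60 and -0.53. The wild-type P2 air arrays reached 6.57, 2.38, 1.67 and 1.96 for the same lists.

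**Figure D1:**
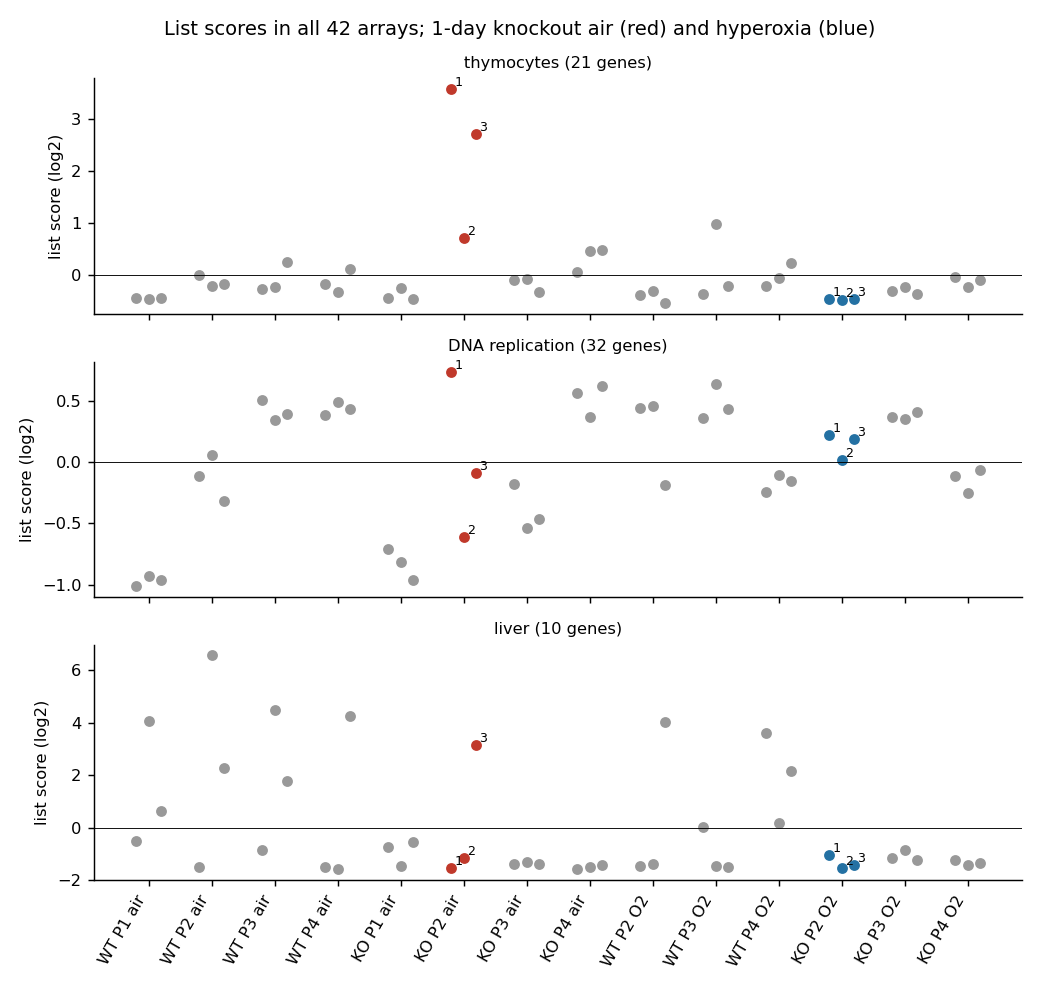
List scores (mean log2 deviation of a list's genes from their means over 42 arrays, y axis) for thymocytes, DNA replication and liver in every array, grouped on the x axis by genotype, age and exposure, with 1-day knockout air in red and 1-day knockout hyperoxia in blue, numbered by replicate. Air replicates 1 and 3 stand at 3.58 and 2.71 for thymocytes, the DNA replication score spans 0.74 to -0.61 within the air group, and the hyperoxia arrays lie close together.

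Against these controls, 19 of 21 thymocyte genes and 7 of 8 thymic epithelial genes fell, with list medians of -2.32 and -1.21 beside -0.015 for all 18194 genes, where 3.33% of genes were called lower. T cell receptor segments left aside, the largest falls of the comparison were Prss16, given above, Rag1 (-6.52 ± 0.84, adjusted p = 1.49e-05), the homing receptor Ccr9 (-5.43 ± 0.66, adjusted p = 9.5e-06), the T cell receptor chain Cd3g (-4.71 ± 0.62, adjusted p = 1.54e-05) and the coreceptor Cd8b1 (-4.27 ± 0.50, adjusted p = 9.5e-06). Bcl11b, a transcription factor of T cell commitment, fell by 4.09. When the mean of the knockout air groups at P1 and P3 replaced the P2 air group as control, 1 of 21 thymocyte genes and 0 of 8 thymic epithelial genes were called (for the latter also 0 at an unadjusted p under 0.05). Rag1 then differed by -0.64 (adjusted p = 0.593), Ccr9 by -0.16 and Cd3g by -0.20. Of the 154 genes called at least 2-fold lower, 147 had air values in the order replicate 1, replicate 3, replicate 2, an order that 3467 of all 18194 genes had.

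Because of this, counts of called genes are given under several controls. With the P2 air group as deposited, 1043 genes were higher (5.73%) and 605 lower (3.33%), or 9.06% in all. Under cyclic loess normalisation 914 were higher and 880 lower, so the higher share went from 63.3% to 51.0%. The thymocyte score was also used as a covariate, and since it is the mean of thymocyte genes, their own differences in that fit are near 0 by construction. With it 59 genes were higher (0.324%) and 15 lower (0.0824%). The score also separated the groups, from 0.70 to 3.58 in air and from -0.49 to -0.47 in hyperoxia. It thus runs along with the exposure, which makes differences in that fit less precise. A call can be lost there with little change in the difference itself. Whether thymus accounts for a lost call was not tested, here or in later paragraphs. Without air replicates 1 and 3, which leaves 1 air array assumed to vary like the other groups, 47 were higher and 30 lower. Against the mean of P1 and P3 air, which also carries the change with age, 1427 were higher (7.84%) and 753 lower (4.14%), and 301 and 44 of these were called in the same direction against the P2 air group. That control has a tissue signal of its own, since P3 air replicate 2 held the highest skeletal muscle score of the series (5.34, with 1.89 in P3 air replicate 3), and the skeletal muscle list had a median of -1.39 against it. Without P3 air replicate 2, a setting chosen after seeing the data, 1353 genes were higher and 954 lower, and the skeletal muscle median was -0.68. A fit on the 6 arrays alone called 4 genes, Aard, Htra1, Pon1 and a gene known by the clone name 2310001H17Rik, named here after their values were seen. Leaving out 1 array at a time gave 707 genes without air replicate 1, 3125 without air replicate 2, 866 without air replicate 3, and 807, 994 and 1212 without hyperoxia replicates 1, 2 and 3. The air arrays correlated with each other across genes at r of 0.981 to 0.984 and the hyperoxia arrays at 0.997, where genes are not independent replicates. The 3 air arrays and the 3 hyperoxia arrays did not overlap for 2120 genes that were higher in hyperoxia (11.7%) and 1719 that were lower (9.45%).

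A small set of genes was called in the same direction with and without the thymocyte covariate and did not overlap between the groups, 8 of them higher and 4 lower. Eda2r, a receptor of the tumour necrosis factor family and a p53 target, read 4.73, 4.46 and 4.95 in air and 7.29, 6.29 and 6.56 in hyperoxia, a rise of 2.00 ± 0.26 (adjusted p = 1.54e-05). It was the largest rise of the comparison, and with the covariate it was 2.26 (adjusted p = 0.0263). Psrc1, a spindle protein gene that p53 is known to control, read 7.56, 5.99 and 6.65 in air and 8.37, 8.20 and 8.57 in hyperoxia and rose by 1.65 ± 0.29 (adjusted p = 0.000412, 2.86 with the covariate). The groups did not overlap for either gene, although the air values of Psrc1 followed the order of the thymocyte score. Ddias, a gene of DNA repair and survival after damage, rose by 1.31 ± 0.27 (adjusted p = 0.00222). Nr4a1, an orphan nuclear receptor of the immediate early class, rose by 1.24 ± 0.30 (adjusted p = 0.00775) and lost its call without hyperoxia replicate 3 (1.03).

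The other rises of this set were smaller. Tubb6, a beta-tubulin, read 9.63, 9.42 and 9.70 in air and 10.54, 10.31 and 10.54 in hyperoxia (0.88 ± 0.14, adjusted p = 0.000191). Fscn1, which bundles actin, read 10.59, 10.33 and 10.62 in air and 11.39, 11.23 and 11.20 in hyperoxia (0.76 ± 0.11, adjusted p = 8.31e-05). In both genes the air arrays lay close to each other and below every hyperoxia array. Zfp367 rose by 0.79 and Slfn9 by 0.70. Leaving out 1 array ended the call of Zfp367 without air replicate 3 (0.71) or hyperoxia replicate 1 (0.65), and that of Slfn9 without air replicates 2 or 3 or hyperoxia replicates 1 or 3 (0.48, 0.74, 0.61 and 0.66). Of the 4 falls, Mkrn1, an E3 ubiquitin ligase, read 12.01, 12.39 and 11.65 in air and 10.97, 10.98 and 11.03 in hyperoxia (-1.02 ± 0.23, adjusted p = 0.00454). Pabpc1, the cytoplasmic poly(A)-binding protein, read 13.77, 13.82 and 13.71 in air and 13.46, 13.38 and 13.38 in hyperoxia (-0.36 ± 0.060, adjusted p = 0.000237), but against the mean of P1 and P3 air it was 0.16 (adjusted p = 0.0457), the opposite direction, and not called without P3 air replicate 2 (adjusted p = 0.0681). Hif3a, a relative of the hypoxia-inducible factors, fell by 0.53 and Lpar2, a receptor for lysophosphatidic acid, by 0.34. Without air replicate 2 the calls of Hif3a (-0.37) and Lpar2 (-0.23) were lost, and that of Lpar2 also without hyperoxia replicates 1 (-0.31) or 2 (-0.32). Of these 12 genes, 4 were not called against the mean of P1 and P3 air, Tubb6 (0.28, adjusted p = 0.124), Nr4a1 (0.70, adjusted p = 0.074), Mkrn1 (-0.32, adjusted p = 0.296) and Hif3a (-0.24, adjusted p = 0.173). Eda2r (1.95), Psrc1 (2.02), Ddias (1.81), Zfp367 (1.09), Slfn9 (0.86), Fscn1 (0.47) and Lpar2 (-0.34) were called there in the same direction.

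Targets of p53 were higher. Of 25 measured genes of this list 13 rose and 1 fell, against 5.73% and 3.33% of all genes, with a list median of 0.36. Cdkn1a, the p21 inhibitor of cyclin-dependent kinases, read 9.82, 10.29 and 9.88 in air and 11.08, 10.77 and 11.04 in hyperoxia and rose by 0.97 ± 0.16 (adjusted p = 0.00025). Zmat3, an RNA-binding p53 target, read 8.10, 8.15 and 8.04 in air and 9.10, 8.80 and 9.001 in hyperoxia and rose by 0.87 ± 0.12 (adjusted p = 4.6e-05). Phlda3, an inhibitor of AKT, read 9.13, 9.12 and 9.09 in air and 9.82, 9.55 and 9.73 in hyperoxia and rose by 0.59 ± 0.10 (adjusted p = 0.000316). For Zmat3 and Phlda3 the 3 air arrays lay close together and did not follow the thymocyte score, and Cdkn1a was highest in air replicate 2. Cdkn1a was not called with the covariate (0.68, adjusted p = 0.416) or against the mean of P1 and P3 air (0.27, adjusted p = 0.193), where it was called without P3 air replicate 2 (0.39, adjusted p = 0.0403). Zmat3 (0.72) and Phlda3 (0.53) were called against that control, but not with the covariate (0.83, adjusted p = 0.0802, and 0.63, adjusted p = 0.128).

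Other members rose as well. Plk2, a kinase induced by damage, rose by 0.88 ± 0.16 (adjusted p = 0.000679), Ccng1, cyclin G1, by 0.65 ± 0.18 (adjusted p = 0.0174), Aen, an apoptosis-enhancing nuclease, by 0.45 ± 0.11 (adjusted p = 0.00744) and Mdm2, the ubiquitin ligase that returns p53 to low levels, by 0.36 ± 0.088 (adjusted p = 0.00776). Ckap2, a mitotic spindle gene, rose by 0.95 with a spread of air values from 7.64 to 8.66, and Polk, a polymerase that copies past lesions, by 0.38. The call of Ccng1 was lost without air replicate 1 (0.65) or hyperoxia replicates 1 (0.59) or 3 (0.64), that of Aen without hyperoxia replicate 1 (0.36) and that of Mdm2 without hyperoxia replicate 3 (0.31). Ckap2 kept its call without air replicate 1 alone (values 0.73 to 1.24), and Polk without air replicate 2 alone (0.28 to 0.45). The member that fell, Ddit4 (-0.78 ± 0.19, adjusted p = 0.00675), encodes the mTOR inhibitor REDD1, which glucocorticoids and lack of oxygen are also known to induce, and its call was lost without air replicate 3 (-0.69). Under the thymocyte covariate 2 of 25 were called, Eda2r and Psrc1, with a median of 0.26 and 11 higher at an unadjusted p under 0.05, and against the mean of P1 and P3 air 12 were higher and 2 lower with a median of 0.39. Without hyperoxia replicate 1 the count of rises went to 8.

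**Figure D2:**
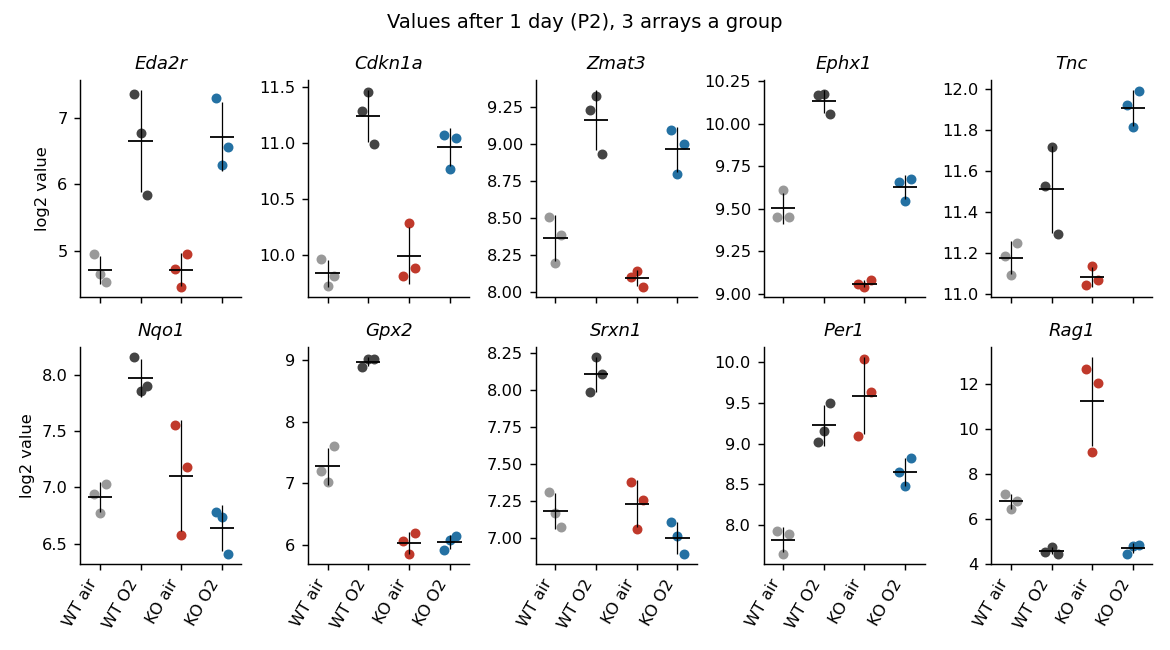
Log2 values (y axis) of 10 genes in the 3 arrays of each P2 group, wild type in grey and black and knockout in red and blue, with bars for the mean and 1 SD. Eda2r, Cdkn1a, Zmat3 and Ephx1 are higher in hyperoxia in both genotypes, while Nqo1, Gpx2 and Srxn1 are higher in wild-type hyperoxia, Per1 moves in opposite directions and Rag1 is high in knockout air.

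In the wild type the p53 list had a median of 0.35, with 10 genes higher and 2 lower, where 2.64% and 1.69% of all genes were called. Eda2r was 1.95 ± 0.26 there, Zmat3 0.80 ± 0.12 and Cdkn1a 1.41 ± 0.16. The difference between the genotypes was 0.052 ± 0.37 for Eda2r, 0.071 ± 0.17 for Zmat3 and -0.44 ± 0.23 for Cdkn1a, with adjusted p of 0.959, 0.876 and 0.32, which did not pass the test and does not show that the responses were alike. Of the 25 genes Ddit4 alone differed between the genotypes (-0.99, adjusted p = 0.0372).

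Of the promoter windows that bear on these lists, one p53 target is shown here because it holds matches to the p53 half-site, and the later ones because they hold an antioxidant response element or an E2F site. RefSeq windows (GRCm38.p6, 250 bases before to 50 after a gene's start) were held for 19 of the 25 p53 targets, and 10 of these had the p53 half-site on either strand in at least 1 window, beside 8.36% of all 32851 windows. Windows per gene differ, so the shares are a description. Cdkn1a has 2 windows, of which 1 held matches. That window, on the plus strand of chr17:29090729-29091028, is printed with its 2 half-site matches in capitals.
Cdkn1a: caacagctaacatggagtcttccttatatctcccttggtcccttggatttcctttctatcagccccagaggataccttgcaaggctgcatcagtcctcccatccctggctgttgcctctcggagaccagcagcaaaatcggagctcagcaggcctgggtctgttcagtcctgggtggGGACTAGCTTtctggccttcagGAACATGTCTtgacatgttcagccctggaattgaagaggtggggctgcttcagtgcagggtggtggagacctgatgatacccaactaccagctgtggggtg
No match was found in the window of Eda2r, which says only that these letters are not in that window.

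NRF2 targets as a group moved little in the knockout. Of 33 measured genes 4 rose, beside 5.73% of all genes, and 0 fell in the limma fit (8 higher and 4 lower at an unadjusted p under 0.05), and the list median was 0.093. In the wild type 19 of the 33 rose, beside 2.64% of all genes, with a median of 0.51. The list score was between -0.41 and -0.36 in knockout air and between -0.31 and -0.27 in knockout hyperoxia, and between -0.067 and 0.011 in wild-type air and 0.46 and 0.52 in wild-type hyperoxia, so the 4 groups did not overlap. The knockout responses of 8 genes were called lower than the wild type's, where 1.35% of all genes were called lower and 1.34% higher, and none of the list was called higher.

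The enzymes that respond most in the wild type showed this most plainly. Gpx2, an epithelial glutathione peroxidase, read 6.06, 5.85 and 6.20 in knockout air and 5.92, 6.08 and 6.15 in knockout hyperoxia (0.015 ± 0.16), but 7.19, 7.02 and 7.602 and 8.88, 9.02 and 9.01 in wild-type air and hyperoxia (1.70 ± 0.16). The genotypes differed in this response by -1.68 ± 0.22 (adjusted p = 0.0002). Knockout arrays of both exposures lay below all wild-type arrays. Nqo1, the quinone reductase that serves as a standard NRF2 readout, read 7.56, 6.58 and 7.18 in knockout air and 6.78, 6.74 and 6.41 in knockout hyperoxia, against 6.94, 6.77 and 7.03 and 8.16, 7.85 and 7.90 in the wild type. Its air values followed the order of the thymocyte score, and its difference in the knockout was -0.46 ± 0.16 (adjusted p = 0.0707) and 0.0014 with the covariate. The genotypes differed by -1.52 ± 0.23 (adjusted p = 0.00102).

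Srxn1, sulfiredoxin, which repairs over-oxidised peroxiredoxins, read 7.38, 7.06 and 7.26 in knockout air and 7.10, 7.01 and 6.89 in knockout hyperoxia and had a genotype difference of -1.15 ± 0.22 (adjusted p = 0.00716). Txnrd1, thioredoxin reductase, read 9.72, 9.19 and 9.40 in air and 9.61, 9.65 and 9.72 in hyperoxia, a difference of 0.23 ± 0.091 (adjusted p = 0.129) that was 0.61 and called with the thymocyte covariate (adjusted p = 0.0342). It was 0.79 ± 0.091 in the wild type, and the genotypes differed by -0.57 ± 0.13 (adjusted p = 0.0166). The aldehyde oxidase Aox1 (-1.07), the carboxylesterase Ces1g (-1.07), glutathione reductase Gsr (-0.62) and the glutathione transferase Gstm1 (-0.50) were the other genes whose response differed. With the thymocyte covariate Gpx2 alone of the 8 still differed between the genotypes (adjusted p = 0.0368), and Nqo1 (-1.10), Srxn1 (-0.98), Txnrd1 (-0.22), Aox1 (-0.83), Ces1g (-0.86), Gsr (-0.58) and Gstm1 (-0.82) did not pass the test (adjusted p from 0.0649 to 0.747). Gclc and Gclm, the subunits of the enzyme that starts glutathione synthesis, differed by 0.15 and -0.25 in the knockout, and heme oxygenase Hmox1 by 0.33 and the cystine carrier Slc7a11 by -0.18, none past the test. Their genotype differences also missed it (adjusted p from 0.1 to 0.595).

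Of the 4 members that rose without NRF2, Ephx1, microsomal epoxide hydrolase, was the steadiest. It read 9.06, 9.04 and 9.08 in air and 9.66, 9.54 and 9.68 in hyperoxia (0.57 ± 0.11, adjusted p = 0.00154), against 0.63 ± 0.11 in the wild type, and it was called without any 1 of the 6 arrays. Gstm2, a glutathione transferase, rose by 0.52 ± 0.12 (adjusted p = 0.00575) and lost its call without air replicate 1 (0.40). The aldo-keto reductase Akr1b8 (0.64, adjusted p = 0.0476) kept its call without air replicate 2 alone (0.55 to 0.80), and the export pump Abcc1 (0.37, adjusted p = 0.0202) without air replicate 1 or 2 (0.33 to 0.43). Without air replicate 3, or without any 1 of the hyperoxia arrays, 2 of the 33 genes were called higher. The covariate fit called 1, Txnrd1, and Gstm2 (0.20) and Akr1b8 (0.27) were smaller while Ephx1 (0.56) and Abcc1 (0.35) were close to their values without it. When the mean of P1 and P3 air was the control, Ephx1 (0.77, adjusted p = 6.94e-06) and Abcc1 (0.27, adjusted p = 0.0483) were called and Gstm2 (0.0093, adjusted p = 0.966) and Akr1b8 (-0.039) were not.

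**Figure D3:**
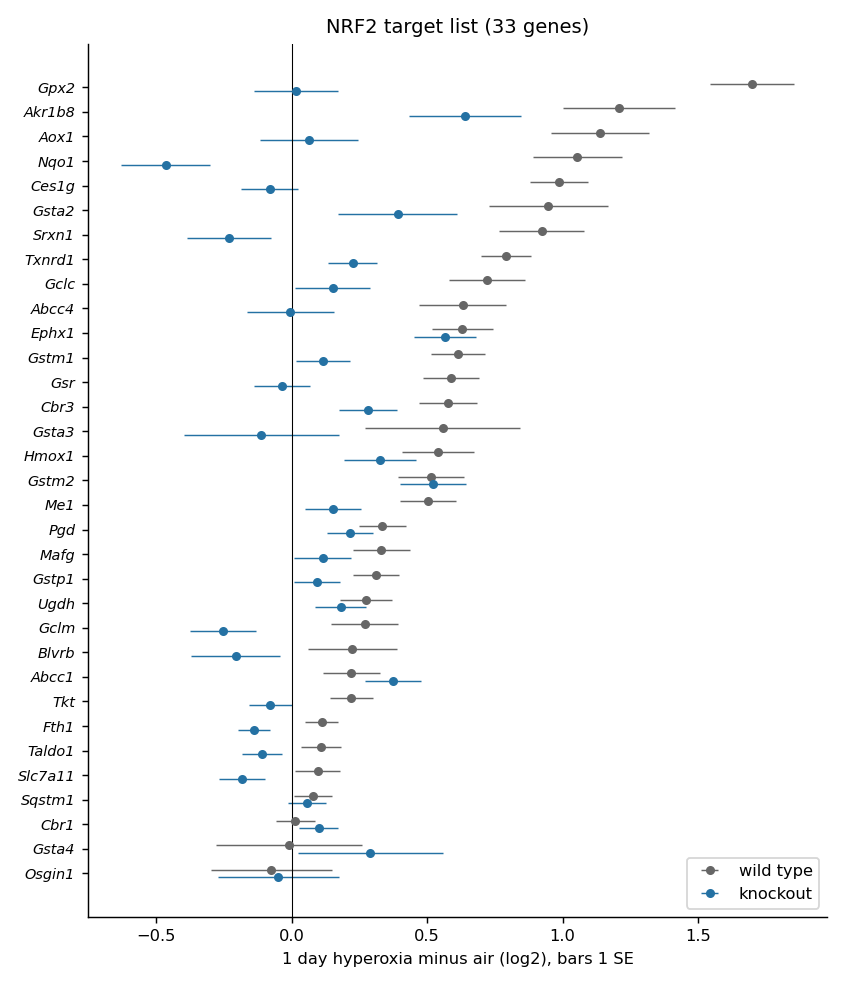
Hyperoxia minus air after 1 day (x axis, log2, bars 1 SE) for each of 33 NRF2 target genes, wild type in grey and knockout in blue, ordered by the wild-type value. Knockout values crowd around 0 while most wild-type values lie above it, with Gpx2 at 1.70 in the wild type and 0.015 in the knockout, and with Ephx1 and Gstm2 close in both genotypes.

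The core of the antioxidant response element was searched as TGACNNNGC on both strands, without regard to overlap with other motifs. It was found in 9 of the 28 NRF2 targets that had a window, and in 12.4% of all windows. The windows of 2 genes whose response differed between the genotypes are printed with the matching bases in capitals, Txnrd1 on the plus strand of chr10:82858956-82859255 and Srxn1 on the plus strand of chr2:152105274-152105573. Txnrd1 has 3 windows, of which only the 1 printed held a match.
Txnrd1: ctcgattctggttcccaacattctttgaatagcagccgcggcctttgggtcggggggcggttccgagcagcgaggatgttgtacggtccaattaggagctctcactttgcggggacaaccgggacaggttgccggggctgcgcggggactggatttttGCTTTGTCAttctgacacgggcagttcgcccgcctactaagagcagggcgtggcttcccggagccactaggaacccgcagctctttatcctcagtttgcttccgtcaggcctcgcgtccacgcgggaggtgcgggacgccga
Srxn1: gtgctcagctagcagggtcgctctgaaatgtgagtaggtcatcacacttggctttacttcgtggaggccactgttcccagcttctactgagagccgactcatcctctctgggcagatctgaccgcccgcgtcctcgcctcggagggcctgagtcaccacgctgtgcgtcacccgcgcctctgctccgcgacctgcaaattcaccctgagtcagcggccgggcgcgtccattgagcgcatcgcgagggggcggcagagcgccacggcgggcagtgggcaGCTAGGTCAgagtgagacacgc
Neither the Nqo1 nor the Gpx2 window held the letters. These absences say nothing of the factor.

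Genes of DNA replication gave different answers with different controls. In the limma fit 0 of 32 were called (4 higher at an unadjusted p under 0.05), with a median of 0.12. In the air arrays 29 of the 32 had the order replicate 1, replicate 3, replicate 2 of the thymocyte score, as had 3467 of all 18194 genes. The groups were separated by 0 of 32, where 11.7% of all genes were separated upward and 9.45% downward. Mcm5, a subunit of the replicative helicase, read 10.92, 9.10 and 9.90 in air and 10.18, 9.95 and 10.20 in hyperoxia, so that the hyperoxia arrays lay between air replicate 1 and the other two. Pcna, the sliding clamp, read 13.36, 12.12 and 12.76 in air and 12.74, 12.59 and 12.76 in hyperoxia. Ccne2, the cyclin E2 of S phase entry, read 8.54, 6.91 and 7.18 in air and 8.62, 8.18 and 8.40 in hyperoxia (0.86 ± 0.29, adjusted p = 0.0612). Thymocytes divide rapidly, and the share of these transcripts that came from them was not tested.

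All hyperoxia arrays lay above air replicate 2, the air array with the lowest thymocyte score, for 30 of the 32 genes, and below air replicate 1 for 29. How many of all genes did so was not counted. In the covariate fit 17 of 32 were called higher and 0 lower (28 and 0 at an unadjusted p under 0.05), beside 0.324% and 0.0824% of all genes. The median was 1.08 beside -0.020 for all genes. Against the mean of P1 and P3 air 28 were called higher, beside 7.84% of all genes, with a median of 0.78. The mean list score was -0.83 in knockout P1 air, -0.40 in P3 air and 0.145 in P2 hyperoxia, so this control was lowest at P1. A change with age and one with oxygen cannot be told apart there. Without air replicates 1 and 3 the median was 0.76. Without air replicate 1 alone 11 were higher, beside 495 of all 18194 genes, and without air replicate 2 alone 1 was lower, beside 1201. The values with the covariate were 1.38 for Mcm3, 1.08 for Mcm4, 1.48 for Mcm5, 1.18 for Mcm7, 0.90 for Pcna, 2.09 for Ccne2, 1.79 for Dtl, which clears the licensing factor Cdt1, and 1.81 for thymidine kinase Tk1, all called. Dscc1, a loader of the sliding clamp outside the list and named after its values were seen, rose in both fits (1.10 and 2.30), though not without air replicate 2 (0.79), air replicate 3 (0.84) or hyperoxia replicate 1 (1.02). In the wild type, whose P2 air arrays all had thymocyte scores below 0, the list median was 0.37. There 1 of 32 was called higher, Mcm3 (0.73), beside 2.64% of all genes.

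Mitotic genes were spread in the same way. Mki67, the Ki-67 marker of cycling cells, read 10.73, 9.23 and 10.18 in air and 10.04, 9.67 and 10.004 in hyperoxia (-0.14 ± 0.28, adjusted p = 0.833). Of 25 mitotic genes 0 were called in the limma fit (1 lower at an unadjusted p under 0.05) and 0 with the covariate, although 23 were higher there at an unadjusted p under 0.05 and the median went from -0.12 to 1.24. Against the mean of P1 and P3 air 15 were higher with a median of 0.85, beside 7.84% of all genes. Without air replicate 2 the count was 4 lower, beside 1201 of all 18194 genes. The mean list score was -1.67 in knockout P1 air, -0.18 in P3 air and -0.064 in P2 hyperoxia. The distance to the first of these controls thus lay mostly at P1, where age differs too. The direction of this list thus turned with the control used.

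**Figure D4:**
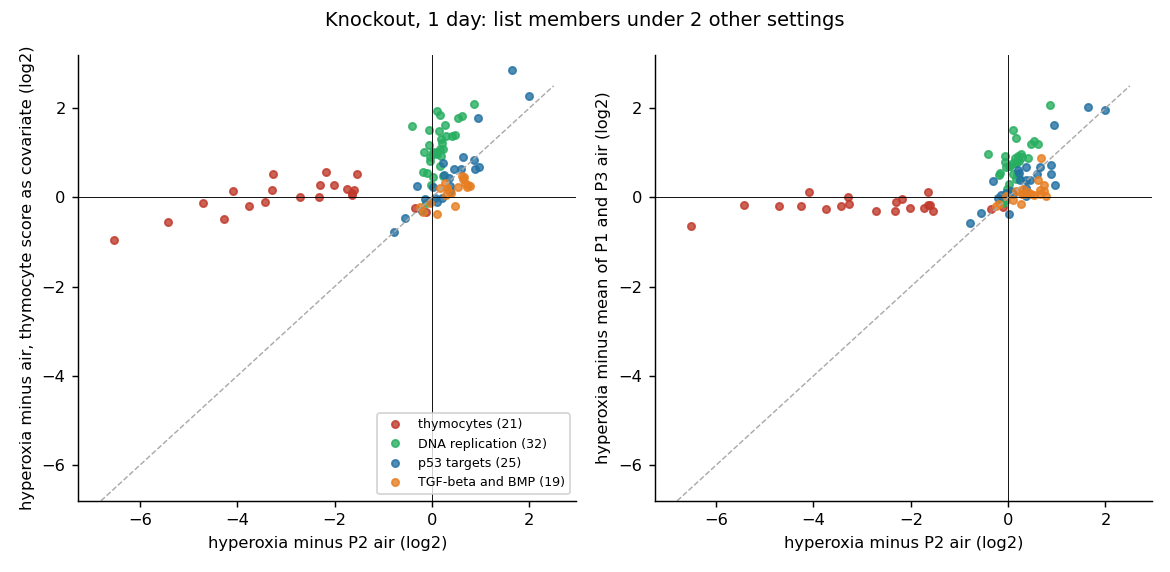
Members of 4 lists, with the knockout hyperoxia minus P2 air difference on both x axes (log2) and, on the y axes, the difference with the thymocyte score as covariate (left) or against the mean of P1 and P3 air (right), with the line of equal values dashed. Thymocyte genes, down to -6.52 on the x axis, have medians of 0.044 and -0.20 on the y axes. The p53 targets have a median of 0.36 on the x axis and 0.26 and 0.39 on the y axes. Single p53 targets such as Psrc1 (left) and Cdkn1a (right) lie off the line. DNA replication genes have a median of 0.12 on the x axis and 1.08 and 0.78 on the y axes.

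E2F factors are known to drive replication genes at the start of S phase. Their site, searched as TTTGGCGC or TTTCCCGC on both strands, was found in 11 of the 27 replication genes with a window and in 1.56% of all windows. The window of Mcm5, one of the genes whose call depended on the control, is printed from the plus strand of chr8:75109259-75109558 with the match in capitals.
Mcm5: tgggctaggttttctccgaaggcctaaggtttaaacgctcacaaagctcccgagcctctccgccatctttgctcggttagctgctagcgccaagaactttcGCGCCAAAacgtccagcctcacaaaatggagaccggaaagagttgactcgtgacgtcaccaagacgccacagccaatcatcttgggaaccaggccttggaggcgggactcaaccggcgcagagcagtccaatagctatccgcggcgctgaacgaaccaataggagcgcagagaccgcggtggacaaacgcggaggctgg

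Growth factor signalling genes were higher against the P2 air group, with less agreement among controls. Of 19 genes of the TGF-beta and BMP pathways 11 rose (list median 0.40), beside 5.73% of all genes. The ligand Tgfb2 rose by 0.65, Tgfb3 by 0.62 and Bmp4 by 0.68, which read 10.13, 10.48 and 9.92 in air and 10.86, 10.80 and 10.92 in hyperoxia. The inhibitory Smad6 rose by 0.78 ± 0.15 (adjusted p = 0.00116), the BMP-binding Bmper by 0.73, the matrix protein Ltbp2, which binds microfibrils, by 0.73 and the BMP target Id1 by 0.65. Air replicate 2 was the highest air array for Smad6, Bmper, Ltbp2 and Bmp4. Under the thymocyte covariate 0 of 19 were called (1 higher at an unadjusted p under 0.05, median 0.22), and against the mean of P1 and P3 air 1 was, Bmp4 (0.89, adjusted p = 1.85e-05). The count was 6 without air replicate 1, 7 without air replicate 3 and 6 without hyperoxia replicate 1. Ltbp2 lost its call without air replicate 1 (0.51) or hyperoxia replicate 1 (0.68) and Bmper without air replicate 3 (0.53), while Tgfb3 lost it without air replicate 1 (0.49) or hyperoxia replicates 1 (0.55) or 3 (0.61). Bmp4 differed between the genotypes, at 0.68 in the knockout and -0.19 in the wild type (difference 0.88 ± 0.20, adjusted p = 0.0166).

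Endothelial genes rose in 7 of 18 cases (median 0.34), where 5.73% of all genes rose. Apln, the peptide apelin of sprouting vessels, read 9.35, 9.88 and 9.21 in air and 10.54, 10.21 and 10.37 in hyperoxia (0.89 ± 0.13, adjusted p = 8.72e-05). Flt1, a VEGF receptor, rose by 0.70 ± 0.13 (adjusted p = 0.00083), Plvap, a protein of capillary pores, by 0.64 ± 0.13 (adjusted p = 0.00134) and Vwf, von Willebrand factor, by 0.62 ± 0.16 (adjusted p = 0.0112). Vwf alone of the list differed between the genotypes (-0.42 in the wild type, difference 1.04 ± 0.22, adjusted p = 0.013), and its call was lost without air replicate 1 (0.40) or hyperoxia replicate 1 (0.60). Vegfa, the main ligand of these vessels, did not pass the test (0.28 ± 0.15, adjusted p = 0.276). The count was 12 without air replicate 2, 0 with the thymocyte covariate (1 higher and 3 lower at an unadjusted p under 0.05, median 0.015) and 3 against the mean of P1 and P3 air (median 0.0057), or 1 without P3 air replicate 2. Of 13 genes of coagulation and fibrinolysis 3 rose, read against the same 5.73%, among them the plasminogen activator Plat, which read 8.43, 8.66 and 8.53 in air and 9.78, 9.495 and 9.49 in hyperoxia (1.05 ± 0.16, adjusted p = 0.000102), and the pathway inhibitor Tfpi (0.54). The count was 2 without air replicate 1 or hyperoxia replicate 1, 6 without air replicate 2 and 0 with the covariate (1 higher at an unadjusted p under 0.05). The response of Plat was 0.13 in the wild type, a difference of 0.91 (adjusted p = 0.0226) that did not pass the test with the covariate (adjusted p = 0.46). Against the mean of P1 and P3 air Apln (0.44, adjusted p = 0.0111) and Tfpi (0.27, adjusted p = 0.0423) were called and Flt1 (0.32, adjusted p = 0.0575), Plvap (0.27, adjusted p = 0.1) and Plat (0.24, adjusted p = 0.243) were not.

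Matrix genes rose in 8 of 21 cases, beside 5.73% of all genes, with Tnc in the lead. Tnc, tenascin C, a matrix protein of remodelling tissue, read 11.04, 11.14 and 11.07 in air and 11.92, 11.82 and 11.99 in hyperoxia, with all air arrays close together, and rose by 0.83 ± 0.11 (adjusted p = 1.49e-05). It was 0.76 with the covariate (adjusted p = 0.0616) and 0.55 against the mean of P1 and P3 air (adjusted p = 0.000226). The elastic fibre genes Ltbp4 (0.43), Emilin1 (0.31) and Loxl1 (0.30) were called by narrow margins, while Eln, elastin itself, was not (-0.064 ± 0.13, adjusted p = 0.839). Ltbp4 kept its call in 3 of the 6 fits that left out 1 array (0.26 to 0.52), and Emilin1 and Loxl1 in 1 of 6, the fit without air replicate 2 (0.29 to 0.35 and 0.23 to 0.35). The list count was 1 without air replicate 1 or hyperoxia replicate 1, 3 without air replicate 3 or hyperoxia replicate 2, 2 without hyperoxia replicate 3, 2 under cyclic loess normalisation and 0 with the covariate (1 higher at an unadjusted p under 0.05). Of 15 genes of smooth muscle and myofibroblasts 4 rose, against the same 5.73%, among them the calcium-regulating hormone gene Stc1 (0.73 ± 0.16, adjusted p = 0.00275) and myosin light chain kinase Mylk (0.48), which was not called without air replicate 1 (0.38). Tagln (0.41) was called in none of the 6 fits that left out 1 array (0.35 to 0.45) and Smtn (0.34) in 3 (0.22 to 0.41). The muscle count was 1 without air replicate 1, 2 without hyperoxia replicate 1 or 3, 2 under loess and 0 with the covariate (0 at an unadjusted p under 0.05).

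Among 29 growth factor and angiogenesis genes 5 rose, where 5.73% of all genes did, led by the Sprouty feedback inhibitors of receptor tyrosine kinases, Spry1 (0.58 ± 0.12, adjusted p = 0.00136), Spry4 (0.57) and Spry2 (0.56 ± 0.11, adjusted p = 0.00154). Spry2 read 8.21, 8.33 and 8.15 in air and 8.80, 8.70 and 8.90 in hyperoxia. Spry4 lost its call without air replicate 3 (0.38), and Pdgfrb, the receptor of pericytes and fibroblasts (0.38), without air replicate 1 (0.26). The list count was 3 without air replicate 1 or 3, 14 without air replicate 2 and 0 with the covariate (1 higher at an unadjusted p under 0.05). Nox4, an oxidase that makes hydrogen peroxide, was the one called member of 18 superoxide and peroxide enzymes and rose by 0.96 ± 0.20 (adjusted p = 0.00196). It read 8.61, 9.20 and 8.18 in air, highest in air replicate 2, and 9.66, 9.60 and 9.62 in hyperoxia. Nox4 was not called with the covariate (0.44, adjusted p = 0.829), without air replicates 1 and 3 (0.43) or against the mean of P1 and P3 air (0.42, adjusted p = 0.098), and 1 of 18 is a share close to the 5.73% of all genes. Spry1 (0.029) and Spry2 (0.17) were not called against that mean either.

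The other large rises by size were Aard and Pappa2. Aard, a gene known from the gonad, read 7.77, 7.89 and 7.49 in air and 9.48, 9.25 and 9.32 in hyperoxia (1.63 ± 0.27, adjusted p = 0.000262) and was among the 4 genes called in the 6 arrays alone. It was not called with the covariate (1.81, adjusted p = 0.0832) or without air replicates 1 and 3 (1.46, adjusted p = 0.0936), and was called against the mean of P1 and P3 air (1.16, adjusted p = 0.00148). Pappa2, a protease of insulin-like growth factor binding proteins, read 7.56, 8.09 and 7.15 in air and 9.22, 8.92 and 8.997 in hyperoxia (1.44 ± 0.24, adjusted p = 0.000279), with 1.05 under the covariate (adjusted p = 0.405). Pappa2 was 0.15 in the wild type, and the genotypes differed by 1.29 ± 0.34 (adjusted p = 0.0363). Cyp1a1, the cytochrome of the aryl hydrocarbon receptor, read 7.38, 7.55 and 6.31 in knockout air and 8.42, 8.57 and 8.23 in knockout hyperoxia, and 5.29, 5.48 and 5.97 and 8.24, 8.17 and 10.39 in wild-type air and hyperoxia. It rose by 1.33 ± 0.40 (adjusted p = 0.0302) in the knockout, less than in the wild type (3.35 ± 0.40, difference -2.03 ± 0.56, adjusted p = 0.0436). The call in the knockout was kept without air replicate 2 alone (0.95 to 1.56). With the covariate the genotype difference was not called (adjusted p = 0.36), nor was the knockout rise (1.07, adjusted p = 0.77), which also missed the test against the mean of P1 and P3 air (0.87, adjusted p = 0.09). Cyp1a1 was named after its values were seen.

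Glucocorticoid target genes were lower. Of 18 measured, 4 fell, beside 3.33% of all genes, and 0 rose in the limma fit (8 lower and 3 higher at an unadjusted p under 0.05), with a median of -0.36. Fkbp5, a chaperone that dampens the receptor, read 10.92, 9.99 and 9.95 in air and 9.23, 9.08 and 9.12 in hyperoxia (-1.14 ± 0.30, adjusted p = 0.0143). Per1, a clock gene that glucocorticoids also induce, read 9.09, 10.04 and 9.64 in air and 8.65, 8.48 and 8.82 in hyperoxia (-0.94 ± 0.28, adjusted p = 0.0326). The groups did not overlap for either. Ddit4 and Hif3a, described above, were the other falls. Tsc22d3, known as GILZ, read 10.77, 11.89 and 11.06 in air and 10.60, 10.42 and 10.36 in hyperoxia and missed the test (-0.78 ± 0.26, adjusted p = 0.0569), as did Klf9 (-0.51 ± 0.25, adjusted p = 0.235). With the covariate 3 were called lower, Tsc22d3 (-1.72), Klf9 (-1.58) and Hif3a (-1.03), the median was -0.83, and Per1 (-1.55) and Fkbp5 (-0.67) were not. Against the mean of P1 and P3 air 6 were lower, or 4 without P3 air replicate 2. The count of falls was 2 without air replicate 2, 2 without air replicate 3 and 2 without hyperoxia replicate 2, and 3 genes were called higher without air replicate 2. Fkbp5 was not called without air replicate 1 (-0.82) or hyperoxia replicate 2 (-1.11), and Per1 was called without air replicate 1 or hyperoxia replicate 3 and not in the other 4 such fits (-1.19 to -0.72). The glucocorticoid receptor half-site was searched as TGTTCT on both strands of the promoter windows. It was found in 3 of the 15 list genes with a window, in 5 of their 24 windows, and in 19% of all windows.

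Per1 had the largest difference between the genotypes among the glucocorticoid and clock lists. In the wild type it read 7.92, 7.64 and 7.89 in air and 9.02, 9.15 and 9.504 in hyperoxia and rose by 1.40 ± 0.28 (adjusted p = 0.00321), so the knockout air arrays lay above, and the knockout hyperoxia arrays below, their wild-type counterparts. The responses differed by -2.35 ± 0.40 (adjusted p = 0.00383), and by -2.89 with the thymocyte covariate (adjusted p = 0.0368). The clock output gene Dbp, which is known to cycle widely, was 0.12 ± 0.26 in the knockout (adjusted p = 0.841), and Per1 was the only called gene of 18 in the clock list. The hour of the day at which lungs were taken is not given in the sources used here.

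Genes of antigen presentation fell together with the thymus transcripts. Of 16 measured, 8 fell (median -0.73), beside 3.33% of all genes. The class I gene H2-Q2 read 10.13, 7.33 and 8.89 in air and 6.54, 6.12 and 5.59 in hyperoxia (-2.70 ± 0.41, adjusted p = 0.000118), and the immunoproteasome subunits Psmb9 (-1.21 ± 0.24, adjusted p = 0.00139) and Psmb8 (-1.16 ± 0.26, adjusted p = 0.00349) fell as well. The class II chain H2-Ab1 fell by 1.25, although its air replicate 2, at 8.30, lay among the hyperoxia arrays at 8.17, 8.31 and 8.44. The list score in the air arrays was 1.29, 0.051 and 0.70, the order of the thymocyte score, and between -0.11 and -0.079 in hyperoxia. The covariate fit called 0 of 16 (4 higher at an unadjusted p under 0.05, median 0.13), and against the mean of P1 and P3 air 0 were (0 at an unadjusted p under 0.05, median 0.038). The count was 2 without air replicate 1, where Psmb8 (-0.64) and H2-Ab1 (-0.84) were not called, and H2-Ab1 was not called without air replicate 3 (-1.04).

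Some transcripts of other immune lists were lower. The complement genes C1qa (-0.76), C1qb (-0.70) and C1qc (-0.89) fell, as 3 of 17 macrophage genes, beside 3.33% of all genes. C1qa read 9.45, 8.40 and 9.24 in air and 8.29, 8.26 and 8.24 in hyperoxia, highest in air replicates 1 and 3. The macrophage list had a median of 0.13 and 13 of its 17 genes above 0, and its air scores of -0.23, -0.25 and -0.13 lay among the hyperoxia scores of -0.33, -0.12 and -0.15. C1qa, C1qb and C1qc all lost their call without air replicate 1 (-0.55, -0.52 and -0.67), C1qa and C1qb also without air replicate 3 (-0.66 and -0.59), and C1qb without hyperoxia replicate 1 (-0.69) or 2 (-0.69). None of the 3 was called with the covariate or against the mean of P1 and P3 air. The interferon-induced chemokine Cxcl10 read 8.36, 5.82 and 7.38 in air and 5.47, 5.50 and 5.61 in hyperoxia (-1.66 ± 0.33, adjusted p = 0.00146) and was 0.41 with the covariate and 0.00090 against the mean of P1 and P3 air. Among 19 interferon genes 3 fell, Cxcl10, Ifit3 (-0.72) and Stat2 (-0.36), beside 3.33% of all genes. The count was 1 without air replicate 1 or hyperoxia replicate 2, 2 without hyperoxia replicate 1, and 5 to 7 without hyperoxia replicate 3, air replicate 3 or air replicate 2. The interferon scores of the air arrays, 0.67, 0.25 and 0.11, did not follow the order of the thymocyte score. Ifit3 was not called without air replicate 1 (-0.41) or hyperoxia replicate 2 (-0.60), and Stat2 was also not called without hyperoxia replicate 1 (-0.30, with -0.25 and -0.34 in those fits). In the chemokine and cytokine list of 26, Cxcl10 and Ccl8 (-0.55) fell and Ccl6 (0.98) and Hbegf (0.51) rose, beside 3.33% and 5.73% of all genes. No result about the list is read from so few. Ccl8 lost its call without air replicate 1 (-0.32), Ccl6 in 4 of 6 such fits (0.80 to 1.27) and Hbegf in 4 of 6 (0.32 to 0.68).

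B cell genes were divided, with 5 of 11 above 0 and a list median of -0.055. Of the 11, 3 rose, beside 5.73% of all genes. They were the surface marker Ms4a1 (0.90 ± 0.26, adjusted p = 0.026), the receptor chain Cd79a (0.70 ± 0.18, adjusted p = 0.0114) and the lectin Cd22 (0.46). Cd79a read 6.89, 6.85 and 7.18 in air and 7.30, 7.62 and 8.11 in hyperoxia, without overlap. None of the 3 was called without air replicate 1 (0.84, 0.66 and 0.41) or without hyperoxia replicate 3 (0.75, 0.48 and 0.39), and Ms4a1 and Cd22 were also lost without air replicate 3 (0.87 and 0.43) or hyperoxia replicate 2 (0.77 and 0.45). With the covariate 0 were called (2 higher at an unadjusted p under 0.05), and against the mean of P1 and P3 air 0 (1 higher and 1 lower at an unadjusted p under 0.05).

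Stress lists were mixed. Of 20 immediate early genes 5 rose and 2 fell, beside 5.73% and 3.33% of all genes. Nr4a1, described above, and Junb (0.69 ± 0.20, adjusted p = 0.0237) were among the rises, and Myc (-0.82) and Egr2 (-0.72) fell. Myc read 9.47, 7.63 and 8.62 in air, with replicate 2 below all hyperoxia arrays (7.77, 7.77 and 7.71), and against the mean of P1 and P3 air it was 0.43 and Egr2 0.31. Both falls were called without air replicate 2 and in no other fit that left out 1 array (-1.29 to -0.37 and -0.90 to -0.55). Junb was not called without air replicate 3 (0.50) or hyperoxia replicate 2 (0.64) or 3 (0.63). The rises numbered 3 without air replicate 1 or 3 or hyperoxia replicate 2 or 3, and 8 without air replicate 2, and the falls numbered 0 in all of these but the last. Atf3, a stress factor of the same class, was 0.22 ± 0.20 in the knockout and 1.56 ± 0.20 in the wild type, a difference of -1.34 ± 0.28 (adjusted p = 0.0127).

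In the integrated stress list of 23 genes 2 rose and 2 fell, beside 5.73% and 3.33% of all genes, and no result about the list is read from so few. The serine synthesis enzymes Phgdh (-0.67) and Shmt2 (-0.50) fell and the amino acid carrier subunit Slc3a2 (0.31) and the factor Cebpb (0.42) rose. Phgdh read 10.94, 9.44 and 10.46 in air and 9.58, 9.498 and 9.75 in hyperoxia, where air replicate 2 lay below all hyperoxia arrays. Over the fits that left out 1 array these values were -1.09 to -0.34, -0.68 to -0.22, 0.29 to 0.34 and 0.33 to 0.57, called in 2, 3, 4 and 1 of 6. Against the mean of P1 and P3 air Phgdh was 0.018 and Shmt2 0.030. Of 20 chaperones 3 rose and 3 fell, beside 5.73% and 3.33% of all genes. The cytosolic Hsph1 (-0.47) and mitochondrial Hspd1 (-0.41) fell, each called in 1 of those 6 fits (-0.59 to -0.30 and -0.61 to -0.25). Both were above 0 against the mean of P1 and P3 air (0.33 and 0.13). The endoplasmic reticulum chaperones Hsp90b1 (0.32 ± 0.077, adjusted p = 0.00777) and Pdia6 (0.30 ± 0.068, adjusted p = 0.00467) rose. Hsp90b1 was not called without air replicate 1 (0.26). Pdia6 was called in all 6 such fits and against the mean of P1 and P3 air (0.37). The metallothioneins Mt1 (-0.59 ± 0.26) and Mt2 (-0.72 ± 0.29), which bind zinc and respond to glucocorticoids and metals, did not pass the test (adjusted p = 0.159 and 0.12), although no air array overlapped a hyperoxia array. In all, 15 of 41 lists had no called member, with 26 of their 237 measured genes at an unadjusted p under 0.05. Of all 18194 genes 3985 were under it, a larger share. Among the lists with no called member were alveolar type 2 cells (median 0.10), alveolar type 1 cells (0.11), the respiratory chain (-0.083) and targets of hypoxia-inducible factor (-0.17). Liver (-1.58), skeletal muscle (-0.88), fat (-0.72) and heart muscle (-0.41), for which air replicate 3 stood high, had medians further from 0 and no called member either.

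Across all genes the responses of the knockout and the wild type, which share no arrays, differed in 489 genes. Both genotypes were called higher in 158 genes and lower in 18, and 10 genes were called in opposite directions. Receptor segments left aside, the largest negative differences were thymus genes, Ccr9 (-4.45), Cd3g (-4.45), Rag1 (-4.33), Prss16 (-4.24) and Cd8b1 (-3.96), and 19 of 21 thymocyte genes were among the differences. The largest positive ones were Fam13c (1.37), Fbxo32 (1.30), a ubiquitin ligase of muscle wasting, Pappa2 (1.29), the extracellular guide Reln (1.29) and the sodium-calcium exchanger Slc8a1 (1.25). Fam13c, Fbxo32 and Reln were lower in wild-type hyperoxia (-0.87, -1.27 and -1.18, all called) and not called in the knockout (0.50, 0.034 and 0.11). The wild-type P2 air arrays carried other tissues, with scores up to 6.57 for liver, 2.38 for heart muscle, 1.67 for skeletal muscle and 1.96 for fat. The part of those tissues in the differences of these genes was not tested gene by gene. Under the covariate 7 genes differed, Per1 (-2.89), Gpx2 (-1.57), the transcription factor Irx1 (-1.45), the matricellular Ccn2 (-1.30), Lpar2 (-0.84), the splicing kinase Clk1 (1.15) and a transcript named AA986860. The count over all genes was 96 without knockout air replicate 1, 1658 without knockout air replicate 2, 252 and 195 without knockout hyperoxia replicates 1 and 2, 320 without wild-type air replicate 1, and 292 and 147 without wild-type hyperoxia replicates 1 and 2.

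The first day was followed by 2 more in the same genotype, each with its own air group. Over all genes 8.87% were called higher and 3.7% lower after 2 days, and 17% and 14.7% after 3, so the shares of all genes grew with time as well. The p53 list went from a median of 0.36 after 1 day to 0.98 after 2 and 1.32 after 3, with 13, 19 and 21 of 25 genes higher. Eda2r reached 4.61 and Cdkn1a 3.18 at 3 days, and the 3-day response exceeded the 1-day response for 19 of the 25, by 2.61 ± 0.37 for Eda2r, 2.39 ± 0.25 for Ccng1, 2.22 ± 0.23 for Cdkn1a and 1.96 ± 0.16 for Aen (adjusted p = 2.91e-06, 2.86e-08, 2.27e-08 and 5.31e-10). Polk (1.49), Zmat3 (1.49), Phlda3 (1.48) and Mdm2 (1.08) followed. Over all genes 15.5% had a higher and 14.8% a lower response at 3 days than at 1 day.

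Replication genes turned from 0.12 at 1 day to 0.80 at 2 days and -0.60 at 3 days, where 24 of 32 were called lower, beside 14.7% of all genes, and mitotic genes reached -1.32 with 25 of 25 lower. At P3 the replication score was -0.54 to -0.18 in knockout air and 0.35 to 0.41 in knockout hyperoxia. It was 0.35 to 0.51 in wild-type air of that age. The 2-day rise thus stood against a low air group, and why that group was low was not tested. Ccne2 (-2.09), Dscc1 (-2.79), Mcm5 (-1.07), Mcm3 (-0.88) and Mki67 (-1.59) had lower responses at 3 days than at 1 day. The genes with the largest gains at 3 days had not been called at 1 day. Saa3, an acute phase protein, was -0.36 after 1 day and 6.06 after 3, the protease inhibitor Serpina3n -0.65 and 5.47, the EGF-family ligand Ereg 0.089 and 4.74, the monocyte chemokine Ccl2 -0.074 and 4.48, and the cytokine Il6 -0.078 and 4.44. Il6 read 4.13, 4.25 and 4.16 in air and 4.18, 4.11 and 4.02 in hyperoxia at 1 day. The largest losses were Prss35 (-3.84), Aard (-3.13), Opcml (-3.06), Fat3 (-2.87) and Prdm8 (-2.86), of which Aard, Opcml and Prdm8 had risen at 1 day (1.63, 0.85 and 0.74). The calls of Opcml and Prdm8 at 1 day held in 2 and 1 of the 6 fits that left out 1 array (0.62 to 1.02 and 0.54 to 0.98).

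**Figure D5:**
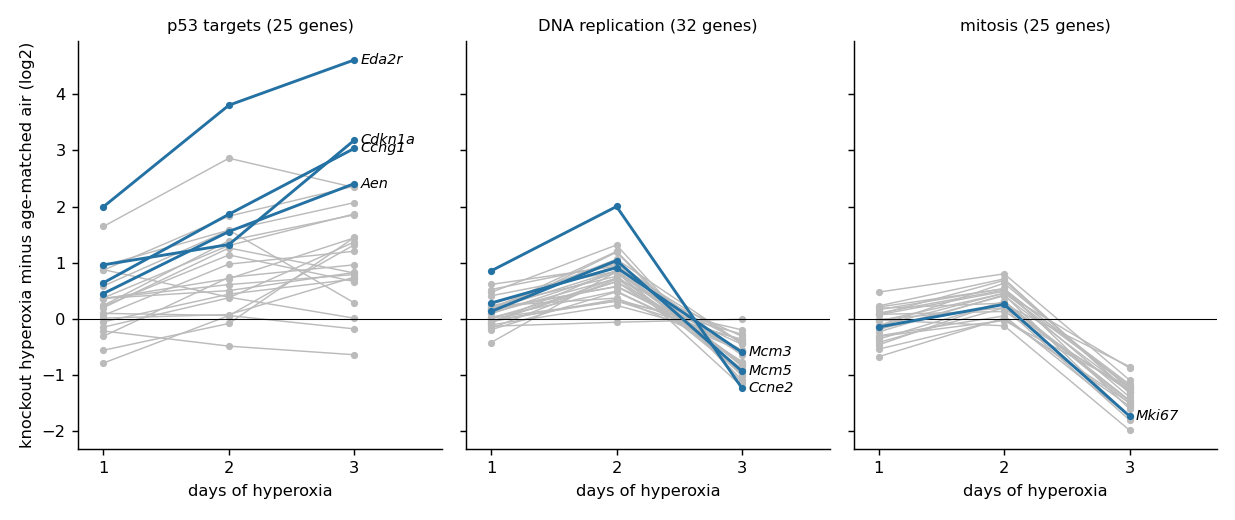
Knockout hyperoxia minus age-matched air (y axis, log2) after 1, 2 and 3 days (x axis) for every gene of the p53, DNA replication and mitosis lists, with a few named genes in blue. Most p53 targets climb, Eda2r from 2.00 to 4.61. Replication genes are higher at 2 days, against an air group with low replication scores, and lower at 3. Mitotic genes fall below 0 at 3 days.

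The step from 1 to 2 days was called in 1601 genes, and its largest gains, receptor segments left aside, were thymus genes, Rag1 (5.78), Ccr9 (5.09), Cd3g (4.79), Prss16 (4.35) and Bcl11b (4.33), whose 1-day difference rested on the P2 air arrays. Its largest losses were Rprd2 (-1.63), Sgip1 (-1.53), Tox2 (-1.53), Clstn2 (-1.37) and Lrrc15 (-1.34). Tox2 had risen at 1 day (0.67), a call lost without air replicate 1 (0.58), air replicate 3 (0.63) or hyperoxia replicate 1 (0.51). In this step 27 genes were called under the thymocyte covariate. Without air replicate 1 at P2 the count was 718, without air replicate 2 at P2 3122 and without air replicate 3 at P3 1055.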

How the data were processed

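The authors deposited log2 values per probe set and array, which were taken without further change. GCOS and RMA are the tools listed, without versions, in the submitters' processing notes. RMA corrects background and summarises the probes of a set, and is usually run with quantile normalisation. Over all 45101 probe sets the array medians ran from 6.31 to 6.40, so the arrays do not share one median here, and values are read as relative levels. Of 45101 probe sets 34958 carry 1 symbol, and the one with the highest mean over 42 arrays stood for each of 18194 genes. Groups came from the titles.

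A model of 14 group means was fitted to the 42 arrays (limma 3.58.1, R 4.3.3; 28 residual degrees of freedom, 31.4 moderated), with Benjamini-Hochberg adjustment over all genes within a contrast, two-sided. Files were read with data.table (version 1.17.8). The procedure was tested on simulated data. For arrays, their number limits the precision. Replicates are separate mice per the labels.

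The 41 gene lists and the comparisons were chosen with earlier results of these data known. Genes were named by rule: up to 12 largest rises and falls called with and without the thymocyte covariate and without overlap, the 4 largest rises and 8 largest falls called, 20 fixed genes, up to 4 called members of each list with at least 3, and 5 per direction in each difference between responses. Predicted genes, receptor segments and sex genes were left out of the ranked choices, and further list members were named after their values were seen. Alternatives are given in the closing section.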

Additional observations from a re-analysis of the deposited data

Results flagged for a closer look

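The results below are differences between responses that passed a test of the difference itself (limma contrasts, adjusted p under 0.05), in log2 units. The knockout response at 1 day differed from the wild type's in 489 genes. Among the genes reported these were Pappa2 (1.29), Rag1 (-4.33), Ccr9 (-4.45), Cd3g (-4.45), Prss16 (-4.24), Cd8b1 (-3.96), Fam13c (1.37), Fbxo32 (1.30), Reln (1.29), Slc8a1 (1.25), Nqo1 (-1.52), Gpx2 (-1.68), Txnrd1 (-0.57), Srxn1 (-1.15), Per1 (-2.35), Aox1 (-1.07), Ces1g (-1.07), Atf3 (-1.34), Bmp4 (0.88), Vwf (1.04), Ddit4 (-0.99), Cyp1a1 (-2.03), Plat (0.91), Gsr (-0.62) and Gstm1 (-0.50). The values of thymus genes there move with the thymocyte score of the knockout air arrays (3.58, 0.70 and 2.71). The part of that score in the other genes was not tested beyond the covariate fit, in which 7 genes were called. Other tissue in the wild-type P2 air arrays enters these differences too. With scores of thymocytes, liver, heart and skeletal muscle as covariates 10 genes were called.

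The knockout response at 2 days differed from that at 1 day in 1601 genes, among them Rag1 (5.78), Ccr9 (5.09), Cd3g (4.79), Prss16 (4.35), Bcl11b (4.33), Rprd2 (-1.63), Sgip1 (-1.53), Tox2 (-1.53), Clstn2 (-1.37) and Lrrc15 (-1.34). The same air arrays enter this difference.

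The knockout response at 3 days differed from that at 1 day in 5507 genes, and in 2940 with the thymocyte covariate. Those reported were Aard (-3.13), Saa3 (6.41), Serpina3n (6.12), Ereg (4.65), Ccl2 (4.55), Il6 (4.52), Prss35 (-3.84), Opcml (-3.06), Fat3 (-2.87), Prdm8 (-2.86), Eda2r (2.61), Cdkn1a (2.22), Ccng1 (2.39), Mdm2 (1.08), Zmat3 (1.49), Phlda3 (1.48), Aen (1.96), Polk (1.49), Dscc1 (-2.79), Ccne2 (-2.09), Mcm3 (-0.88), Mcm5 (-1.07) and Mki67 (-1.59).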

How the results depend on the processing

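The count of 1648 called genes was 4 in a fit on the 6 arrays alone (3 higher, 1 lower), 1064 on the 21 knockout arrays (361 lower), 3048 with array weights (2074 higher, 974 lower), 74 with the thymocyte covariate (59 and 15), 77 without air replicates 1 and 3 (47 and 30), and 90 (74 and 16) with scores of thymocytes, liver, heart and skeletal muscle as covariates, a setting chosen after seeing the data. With the mean of P1 and P3 air as control, less P3 air replicate 2 (added after seeing the data), 954 were lower. Among the upper 60 percent of genes by level 399 were lower. Leaving out 1 array gave 707 to 3125 called genes, 421 to 1924 higher and 212 to 1201 lower. The wild-type count of 788 was 12 in its 6 arrays, 1232 with array weights and 231 to 1069 leaving out 1 array. The genotype difference (489) was 5 in its own arrays, 1383 with array weights, 7 with the thymocyte covariate, 10 with the 4 scores, 15 without air replicates 1 and 3, and 96 to 1658 leaving out 1 array. The 2-day step (1601) was 340 in its own arrays, 671 in the 21 knockout arrays, 3310 with array weights, 27 with the thymocyte covariate, 33 with the 4 scores, 131 without air replicates 1 and 3, and 718 to 3122 leaving out 1 array, and the 3-day step (5507) was 3522 in its own arrays, 2940 with the thymocyte covariate, 3300 with the 4 scores and 3297 without air replicates 1 and 3.

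Signs turned as follows (log2). With the mean of P1 and P3 air as control: Pabpc1 0.16, Bcl11b 0.11, Tbata 0.015, Nqo1 0.18, Gclm 0.015, Gpx2 -0.21, Mki67 0.96, Sftpc -0.030, Akr1b8 -0.039, Phgdh 0.018, Shmt2 0.030, Hsph1 0.33, Hspd1 0.13, Cxcl10 0.00090, Hbegf -0.050, Stat2 0.15, H2-Q2 0.11, H2-Ab1 0.16, Psmb9 0.14, Psmb8 0.15, Myc 0.43, Egr2 0.31, Reln -0.0055, Rprd2 -0.84, Tox2 -0.26, Lrrc15 -0.17, Aox1 -0.041, Pcna 0.68, Mcm7 0.92, Atf3 -0.62 and Gsr 0.015. With that control less P3 air replicate 2: Pabpc1 0.15, Bcl11b 0.21, Tbata 0.015, Nqo1 0.19, Gclm 0.0095, Gpx2 -0.24, Mki67 0.92, Sftpc -0.029, C1qb 0.018, Akr1b8 -0.051, Gstm2 -0.030, Shmt2 0.040, Hsph1 0.38, Hspd1 0.19, Hbegf -0.057, Stat2 0.12, H2-Q2 0.11, H2-Ab1 0.13, Psmb9 0.15, Psmb8 0.21, Myc 0.47, Egr2 0.22, Spry1 -0.0038, Rprd2 -0.86, Tox2 -0.24, Lrrc15 -0.18, Pcna 0.65, Mcm7 0.89, Atf3 -0.60 and Gsr 0.022. With the thymocyte covariate: Bcl11b 0.15, Nqo1 0.0014, Mki67 1.14, Sftpc -0.015, Vegfa -0.15, Psmb11 0.18, Phgdh 0.49, Shmt2 0.058, Cxcl10 0.41, Ifit3 0.038, H2-Ab1 0.60, Psmb9 0.11, Psmb8 0.42, Myc 0.39, Reln -0.24, Rprd2 -0.18, Ereg -0.32, Ces1g 0.15, Gstm1 -0.24, Pcna 0.90, Mcm7 1.18, Atf3 -0.12 and Gsr 0.015. With the 4 scores: Bcl11b 0.14, Mki67 1.17, Sftpc -0.0043, Vegfa -0.10, Psmb11 0.17, C1qb 0.033, Phgdh 0.45, Shmt2 0.054, Cxcl10 0.41, Ifit3 0.041, H2-Ab1 0.57, Psmb9 0.12, Psmb8 0.45, Myc 0.36, Reln -0.11, Rprd2 -0.19, Ereg -0.39, Ces1g 0.15, Gstm1 -0.23, Pcna 0.88, Mcm7 1.16 and Atf3 -0.18. Without air replicates 1 and 3: Nqo1 0.061, Mki67 0.68, Sftpc -0.014, Vegfa -0.083, Phgdh 0.17, H2-Ab1 0.0063, Myc 0.12, Rprd2 -0.030, Ereg -0.013, Ccl2 0.011, Gstm1 -0.16, Pcna 0.58, Mcm7 0.75 and Atf3 -0.094. With array weights: Gpx2 -0.086, Fbxo32 -0.074, Reln -0.021, Aox1 -0.12 and Gsr 0.061. With loess Sftpc -0.022, and with the mean of all probe sets Sftpc -0.17. Leaving out 1 array gave signs of both kinds for these genes, with ranges of Aox1 -0.070 to 0.28, Dbp -0.046 to 0.28, Eln -0.17 to 0.023, Fbxo32 -0.12 to 0.17, Gpx2 -0.078 to 0.10, Gsr -0.12 to 0.041, Mcm3 -0.064 to 0.73, Mcm4 -0.039 to 0.56, Mcm5 -0.30 to 0.61, Mcm7 -0.47 to 0.35, Mki67 -0.55 to 0.20, Pcna -0.36 to 0.26 and Reln -0.041 to 0.24. The cause was not tested.

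The air and hyperoxia arrays share replicate numbers without a stated link. The deviations of same-numbered arrays from their group means correlated at -0.03, 0.16 and 0.24 over genes. Arrays of different numbers correlated at -0.25 to 0.079. Since no link is stated, the numbers were not taken to pair the animals, and these values do not settle whether they do. With the replicate number as a block 1729 genes were called, 1099 higher and 630 lower. Among the genes named it changed the calls of Nqo1 (-0.46, limma adjusted p = 0.0324) and Akr1b8 (0.64, limma adjusted p = 0.053).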
